A study of Mus musculus with 21 samples.

Results

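The genes described here are 9 amino acid transporters of the plasma membrane, *Slc3a2*, *Slc7a5*, *Slc7a6*, *Slc7a11*, *Slc1a5*, *Slc1a4*, *Slc38a1*, *Slc38a2* and *Slc7a1*. They were chosen by name from a table of 53801 genes, each matched 1 row, and all 9 were among the 20256 genes that passed a filter of at least 10 counts in total. The levels come from bulk RNA-seq of IgA+ plasma cells (PCs), the CD138+ IgA+ antibody-secreting cells of the small intestinal lamina propria, sort-purified from 21 C57BL/6 mice with 1 library each. All 21 mice carried floxed *Arntl* alleles (Arntl fl/fl), and *Arntl* encodes the clock factor Bmal1. The control mice, which lack Cre, were 6 sampled at Zeitgeber time 0 (ZT0, lights on) and 6 at ZT12 (lights off). The knockout mice, Mb1Cre x Arntl fl/fl, were 4 at ZT0 and 5 at ZT12. Mb1 is the *Cd79a* locus, so that Cre is active across the B cell lineage and not in PCs alone, and the Cre insertion sits in *Cd79a* itself.

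Amino acids enter cells through carriers of several families. The SLC7 light chains *Slc7a5*, *Slc7a6* and *Slc7a11* encode exchangers that reach the cell surface bound to a shared heavy chain, CD98, the product of *Slc3a2*. The SLC1 and SLC38 carriers bring in small neutral amino acids and glutamine together with sodium, and *Slc7a1* encodes a carrier of arginine and lysine that works without the heavy chain. Plasma cells spend large amounts of amino acids on immunoglobulin, and leucine carried by the *Slc7a5* product is a known input to the growth kinase mTORC1.

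Libraries held from 14471018 to 22785835 counts. Immunoglobulin genes took from 51.5% to 63.6% of them. Summed plasma cell markers reached 281800 to 593600 CPM (counts scaled to a common library total after TMM normalization, the trimmed mean of M values), against at most 64.2 CPM for T cell markers, 89.2 CPM for myeloid markers and 33.7 CPM for other B cell markers. Epithelial markers summed to between 52.4 and 958 CPM. Genotypes were taken from the sample titles, because 8 of the 9 samples titled as knockout carry the control genotype in their genotype field. *Cd79a* was lower in all 9 knockout mice (163 to 276 CPM) than in all 12 control mice (386 to 586 CPM), whereas *Arntl*, counted over the whole gene and not over the floxed part, was lower in all knockout than in all control mice at ZT0 (4.08 to 6.47 against 6.83 to 8.36 CPM) and overlapped at ZT12 (3.11 to 4.93 against 4.00 to 5.56 CPM). Nothing in these bulk libraries separates a change in RNA per PC from a change in the share of cells that carry it.

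The 9 genes covered a wide range of levels. Per kilobase of gene length, the mean level over the 21 mice was highest for *Slc3a2* at 116.9 CPM per kb, followed by *Slc1a5* at 61.7, *Slc7a5* at 43.9, *Slc38a2* at 25.9, *Slc1a4* at 12.9, *Slc7a1* at 7.95, *Slc7a6* at 4.75 and *Slc38a1* at 3.97 CPM per kb. *Slc7a11*, the light chain of the cystine and glutamate exchanger, was far below the rest at 0.0263 CPM per kb, with 0 to 16 counts in a library.

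The order of neighbours held in every mouse for *Slc3a2* over *Slc1a5*, *Slc7a5* over *Slc38a2*, *Slc38a2* over *Slc1a4*, *Slc1a4* over *Slc7a1*, and *Slc38a1* over *Slc7a11*. It held in 20 of 21 mice for *Slc1a5* over *Slc7a5*, in 19 for *Slc7a1* over *Slc7a6* and in 16 for *Slc7a6* over *Slc38a1*, so the last of these pairs lay within the spread between mice. The order also depends on the deposited gene length, 17236 bases for *Slc38a1*, which need not be that of the expressed transcript. In plain CPM, which is not corrected for length, *Slc38a1* averaged 68.3, above *Slc1a4* at 50.8 and *Slc7a6* at 21.7. The coefficient of variation of plain CPM over the 21 mice ran from 9.21% for *Slc38a2* to 64.9% for *Slc7a11*.

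**Figure D1:**
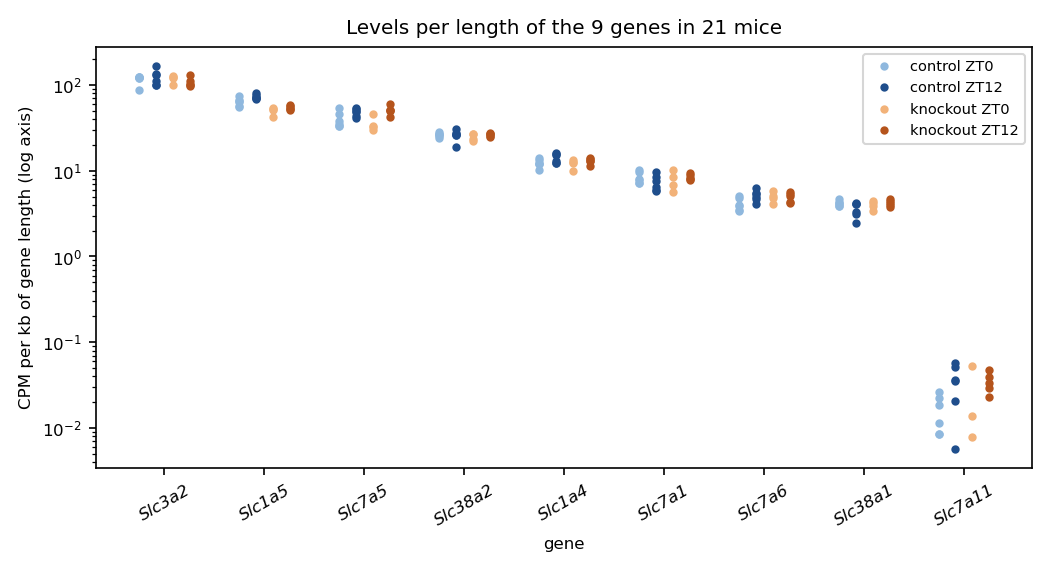
Level of each gene in each mouse, in CPM per kilobase of gene length on a log axis, with 1 point per mouse and 1 colour per group. The 9 genes run from *Slc3a2* (mean 116.9 CPM per kb) to *Slc7a11* (0.0263 CPM per kb); 1 knockout ZT0 mouse with 0 counts of *Slc7a11* is not drawn on the log axis.

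The largest genotype difference among the transporters was in *Slc1a5* (ENSMUSG00000001918, GRCm38 chromosome 7, 16781340 to 16798274, plus strand), which encodes ASCT2, a sodium-dependent exchanger that carries glutamine and other neutral amino acids. At ZT0 the 4 knockout mice had 176.7, 219.4, 222.3 and 211.6 CPM, and the 6 control mice ranged from 229.1 to 313.4 CPM with a median of 268.2. At ZT12 the 5 knockout mice had 220.9, 239.7, 240.3, 226.6 and 215.6 CPM, and the control mice ranged from 285.8 to 339.8 CPM with a median of 299.9. Every knockout mouse was therefore below every control mouse sampled at the same time, at both times. Of all genes tested, 0.474% showed all knockout mice below all control mice at ZT0 and 0.138% did so at ZT12.

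The ZT0 means of *Slc1a5* were 207.5 ± 21.02 CPM (SD, n = 4) in knockout and 266.4 ± 30.4 CPM (SD, n = 6) in control mice. At ZT12 knockout mice averaged 228.6 ± 11.1 CPM (SD, n = 5), control mice 305.7 ± 20.04 CPM (SD, n = 6). The log2 fold change, knockout against control, was -0.36 (SE 0.10) at ZT0 with an adjusted p of 0.926, and -0.42 (SE 0.094) at ZT12 with an adjusted p of 0.379, by edgeR's quasi-likelihood test with Benjamini-Hochberg adjustment over all genes. Neither passed the threshold of 0.05. DESeq2 called the ZT12 difference (log2 fold change -0.44, adjusted p 0.0007124) and not the ZT0 difference (adjusted p 0.189). Over the other alternatives the edgeR adjusted p at ZT12 ran up to 1, and with 1 library left out it ran from 0.252 to 0.770.

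Averaged over both times, a contrast from the same fit that was added after the data had been seen, *Slc1a5* was 1.31-fold lower in knockout mice (log2 fold change -0.39, SE 0.069, adjusted p 0.0152 by edgeR). It was 1 of 7 genes called in that contrast, 0.0346% of those tested. The other 8 transporters were not called in it, with log2 fold changes between -0.10 and 0.14. The call held in 20 of 21 fits that left out 1 library and was lost without knockout ZT0 replicate 1 (log2 fold change -0.36, adjusted p 0.0705). It was also lost with library size only (-0.35, adjusted p 0.249), without the filter on counts (-0.39, adjusted p 0.0554), and with the replicate number as a block (-0.37, adjusted p 0.181), all by edgeR. The ZT12 against ZT0 change of *Slc1a5* was 0.20 (SE 0.089) in control and 0.14 (SE 0.10) in knockout mice on the log2 scale, with edgeR adjusted p of 0.233 and 0.745.

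*Slc1a4* (ENSMUSG00000020142, GRCm38 chromosome 11, 20302180 to 20332713, minus strand) encodes ASCT1, the related carrier of alanine, serine, cysteine and threonine. Its group means lay between 47.2 and 55.4 CPM, and the genotypes overlapped at both times. Knockout ZT0 mice had 50.06, 48.66, 51.76 and 38.52 CPM and control ZT0 mice 39.63 to 55.66 CPM with a median of 48.1. The log2 fold change between genotypes was -0.04 (SE 0.11) at ZT0 and -0.12 (SE 0.10) at ZT12, and neither passed edgeR's test.

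**Figure D2:**
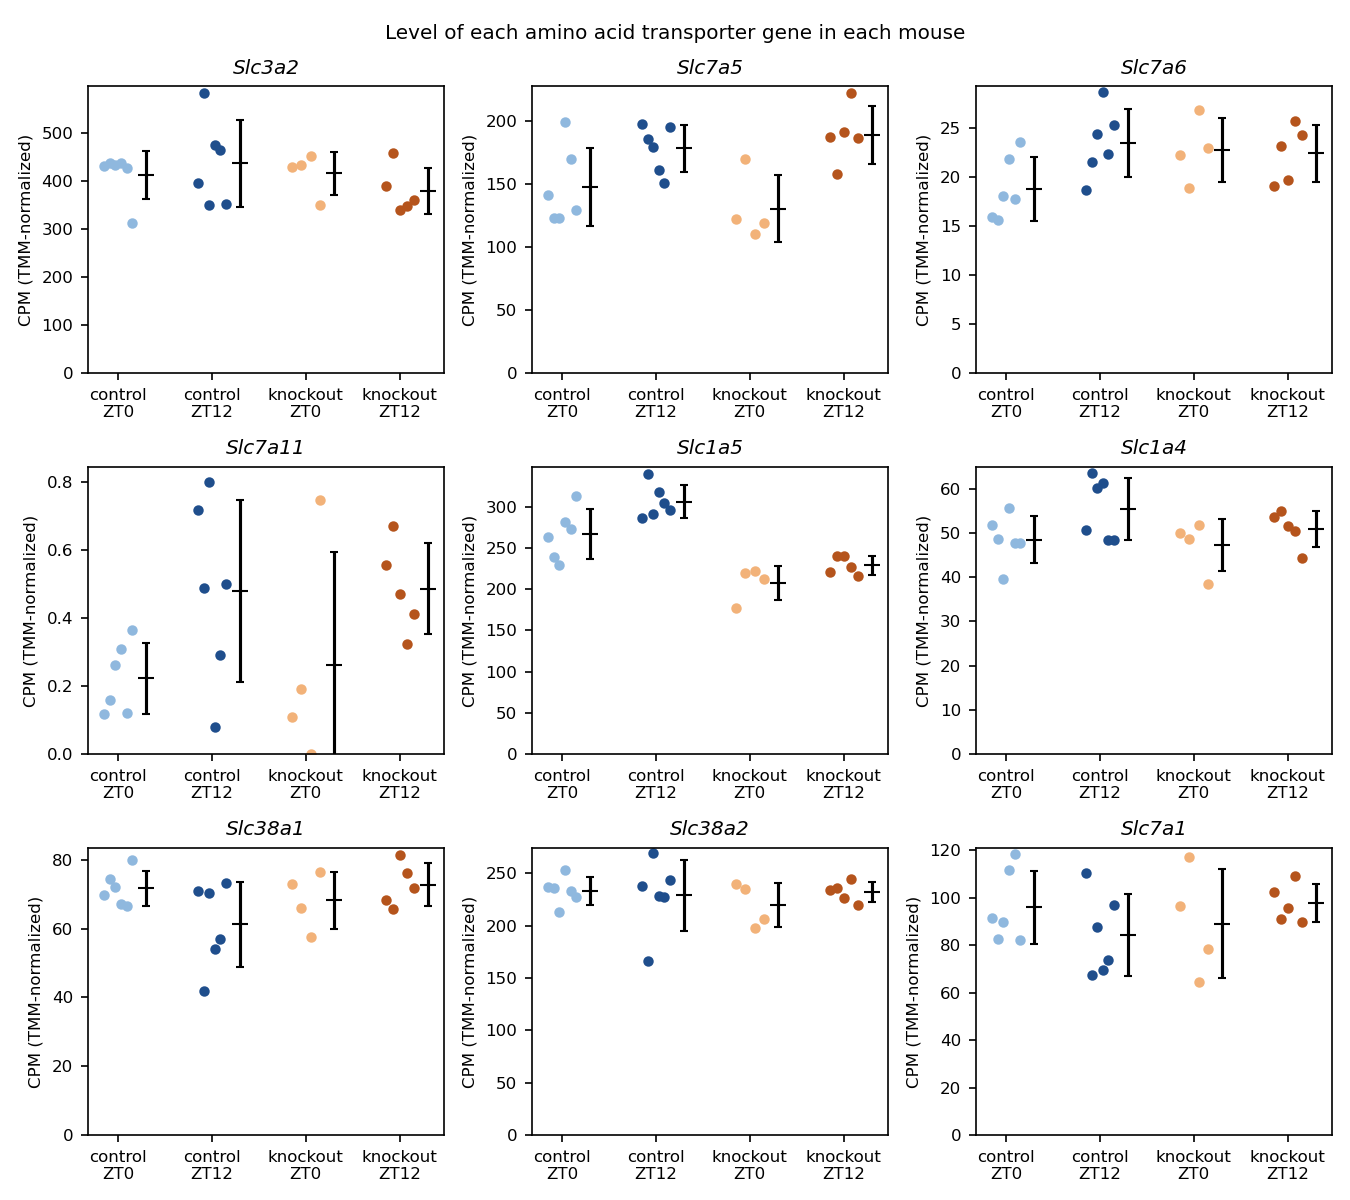
TMM-normalized CPM of each transporter gene in each mouse (1 point per mouse), grouped by genotype and time, with the mean and SD of the group as a bar beside the points and axes that start at 0. The 4 knockout ZT0 and 5 knockout ZT12 mice lie below the control mice of the same time in the panel of *Slc1a5*, and the groups overlap in the other panels.

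*Slc7a5* (ENSMUSG00000040010, GRCm38 chromosome 8, 121881150 to 121907694, minus strand) encodes LAT1, the carrier of leucine and other large neutral amino acids. At ZT0 the control mice ranged from 123.0 to 199.3 CPM with a median of 135.3, and at ZT12 from 151.1 to 197.4 CPM with a median of 182.5. The knockout mice had 122.2, 169.8, 110.7 and 118.9 CPM at ZT0, then 187.5, 157.8, 191.3, 221.9 and 186.2 CPM at ZT12. In both genotypes the medians were higher at ZT12, and the 2 times overlapped through the high ZT0 values, which were 199.3 and 169.7 CPM in control mice and 169.8 CPM in a knockout mouse.

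Control mice averaged 147.6 ± 30.8 CPM of *Slc7a5* (SD, n = 6) at ZT0, with 178.3 ± 18.6 CPM (SD, n = 6) found at ZT12. Knockout mice averaged 130.4 ± 26.7 CPM (SD, n = 4) at the earlier time, with 188.9 ± 22.8 CPM (SD, n = 5) at the later. The log2 fold change, ZT12 against ZT0, was 0.27 (SE 0.13, adjusted p 0.248 by edgeR) in control and 0.54 (SE 0.15, adjusted p 0.357 by edgeR) in knockout mice. The difference between these changes, tested as the interaction, was 0.26 (SE 0.19, adjusted p 0.617 by edgeR). Averaged over both genotypes, again a contrast added after the data had been seen, *Slc7a5* was 1.32-fold higher at ZT12 (log2 fold change 0.40, SE 0.096, adjusted p 0.0398 by edgeR, and 0.002382 by DESeq2). It was 1 of 163 genes called in that contrast, or 0.805% of those tested, and no other transporter of the 9 was called in it.

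That call was close to the threshold. Leaving out 1 library at a time, it held in 9 of 21 fits and was lost in 12, those without control ZT0 replicates 1, 2, 3 or 6, control ZT12 replicate 3, knockout ZT0 replicates 1, 3 or 4, or knockout ZT12 replicates 1, 3, 4 or 5, with edgeR adjusted p from 0.0564 to 0.102. The log2 fold change stayed between 0.37 and 0.47 in these fits. The call was also lost with library size only (0.29, adjusted p 0.187) and with the replicate number as a block (0.41, adjusted p 0.0701), both by edgeR. Epithelial marker sums were also higher at ZT12, with medians of 70.2 and 128 CPM in control mice at ZT0 and ZT12, and of 80.3 and 93.0 CPM in knockout mice. With the mean epithelial marker level in the fit, the change of *Slc7a5* was 0.49 (adjusted p 0.0303 by edgeR).

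*Slc3a2* (ENSMUSG00000010095, GRCm38 chromosome 19, 8706882 to 8723369, minus strand), the heavy chain that *Slc7a5*, *Slc7a6* and *Slc7a11* products need at the surface, had no such time pattern. Control mice ranged from 311.6 to 438.4 CPM (median 431.8) at ZT0 and from 350.1 to 584.3 CPM (median 430.2) at ZT12. Knockout mice had 429.2, 432.4, 452.2 and 350.4 CPM at ZT0, then 389.8, 459.1, 339.9, 347.8 and 360.6 CPM at ZT12. The groups overlapped in all comparisons. The log2 fold change, ZT12 against ZT0, was 0.08 (SE 0.12) in control and -0.13 (SE 0.14) in knockout mice, with edgeR adjusted p of 0.776 and 0.839.

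Since light chain and heavy chain form 1 transporter, their levels per length were set side by side within each mouse. The ratio of *Slc7a5* to *Slc3a2* had a median of 0.345 in control ZT0, 0.399 in control ZT12, 0.297 in knockout ZT0 and 0.491 in knockout ZT12 mice. Across all groups it ran from 0.233 to 0.607, so the heavy chain mRNA was above the light chain mRNA in each of the 21 mice. The ratio of *Slc7a6* to *Slc3a2* was lower, with group medians from 0.0320 to 0.0448.

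*Slc7a6* (ENSMUSG00000031904, GRCm38 chromosome 8, 106168857 to 106198706, plus strand) encodes y+LAT2, which exchanges cationic for neutral amino acids. Control mice ranged from 15.6 to 23.5 CPM (median 17.9) at ZT0 and from 18.6 to 28.6 CPM (median 23.3) at ZT12, and knockout mice had 22.25, 18.88, 26.81 and 22.96 CPM at ZT0, then 19.05, 23.18, 19.70, 25.69 and 24.26 CPM at ZT12. The control ZT0 group was the lowest, and it overlapped with each of the others. The log2 fold change, ZT12 against ZT0, was 0.32 (SE 0.12, adjusted p 0.161 by edgeR) in control and -0.02 (SE 0.14) in knockout mice, and the interaction of -0.34 (SE 0.18) had an adjusted p of 0.485 by edgeR. At ZT0 the knockout against control difference was 0.28 (SE 0.13, adjusted p 0.926 by edgeR). The control time and the ZT0 genotype comparison share the 6 control ZT0 mice.

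*Slc7a11* (ENSMUSG00000027737, GRCm38 chromosome 3, 49892526 to 50443614, minus strand) was near the limit of detection. Control mice ranged from 0.118 to 0.365 CPM at ZT0, and from 0.0801 to 0.799 CPM at ZT12, and knockout mice had 0.110, 0.191, 0 and 0.746 CPM at ZT0, then 0.555, 0.669, 0.471, 0.322 and 0.410 CPM at ZT12. The knockout ZT0 mouse at 0 allows a level of up to 0.200 CPM, taking 3 counts as the limit for counting error. The log2 fold changes at ZT12 against ZT0 of 1.10 (SE 0.63) in control and 0.84 (SE 0.73) in knockout mice did not pass edgeR's test (adjusted p 0.364 in control mice).

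Promoter sequence was looked up because *Slc7a11*, *Slc1a4* and other transporters belong to the known targets of ATF4, the factor of the amino acid starvation response. RefSeq windows of GRCm38.p6, from 250 bases before to 50 bases after the start of transcription, were found for 6 of the 9 genes and not for *Slc7a5*, *Slc1a5* and *Slc38a1*. The C/EBP-ATF response element TTGCATCA, on either strand, was present in 294 of 32851 promoter windows (0.895%). Among the 6 genes it occurred in the windows of *Slc7a11*, with 2 matches, and *Slc1a4*, with 1 match, printed below 5′ to 3′ along the gene's strand with the element in capitals.
Slc7a11, chr3:50443642-50443690, minus strand: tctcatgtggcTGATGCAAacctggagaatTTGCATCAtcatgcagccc
Slc1a4, chr11:20332699-20332728, minus strand: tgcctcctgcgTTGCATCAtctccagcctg
In *Slc7a11* the matches began 66 and 47 bases before the start, the first on the opposite strand, and in *Slc1a4* the match began 4 bases before the start. The E-box CACGTG, the motif bound by Bmal1 with CLOCK, was present in 7.15% of all windows and was not found in those of the 6 genes. These are matches of letters, and binding was not measured.

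The sodium-coupled carriers *Slc38a2* and *Slc38a1* and the arginine carrier *Slc7a1* showed no change with time or genotype that passed edgeR's test. *Slc38a2* (ENSMUSG00000022462, GRCm38 chromosome 15, 96687392 to 96699730, minus strand), which encodes SNAT2, had the narrowest spread, with group means of 233.1 ± 13.1 CPM (SD, n = 6) in control ZT0, 228.8 ± 34.3 CPM (SD, n = 6) in control ZT12, 219.6 ± 20.8 CPM (SD, n = 4) in knockout ZT0 and 232.2 ± 9.62 CPM (SD, n = 5) in knockout ZT12 mice. Its log2 fold changes lay between -0.09 and 0.08 in the 4 comparisons of groups.

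*Slc38a1* (ENSMUSG00000023169, GRCm38 chromosome 15, 96571418 to 96642913, minus strand), which encodes SNAT1, ranged from 66.6 to 79.9 CPM (median 70.9) in control ZT0 and from 41.9 to 73.3 CPM (median 63.8) in control ZT12 mice. Knockout mice had 72.97, 66.14, 57.70 and 76.45 CPM at ZT0, then 68.36, 65.83, 81.50, 76.29 and 71.95 CPM at ZT12. *Slc7a1* (ENSMUSG00000041313, GRCm38 chromosome 5, 148327410 to 148399904, minus strand), which encodes CAT1, ranged from 82.2 to 118.2 CPM (median 90.6) in control ZT0 and from 67.5 to 110.2 CPM (median 80.8) in control ZT12 mice, and knockout mice had 96.27, 117.2, 64.30 and 78.44 CPM at ZT0, then 102.5, 91.14, 95.56, 108.9 and 89.82 CPM at ZT12.

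The lowest values of both genes came from 4 mice, control ZT12 replicates 2, 4 and 5 and knockout ZT0 replicate 3, whose immunoglobulin share of 59.1% to 63.6% exceeded that of the other 17 mice (at most 55.7%). In these 4 libraries *Slc38a1* was at 41.9 to 57.7 CPM against 65.8 to 81.5 CPM in the other 17, and *Slc7a1* at 64.3 to 73.8 CPM against 78.4 to 118.2 CPM. *Slc3a2* was at 452 to 584 CPM in the same 4 libraries and at 312 to 459 CPM in the others. Long genes were lower in these libraries as a whole, with a fitted log2 level at 10 kb minus that at 1 kb of -0.92 to -0.27, against -0.21 to 0.35 in the others, and *Slc38a1* and *Slc7a1* are 17236 and 11530 bases long against 3529 for *Slc3a2*. The other short genes did not all rise with *Slc3a2*, and their ranges overlapped. In the 4 libraries *Slc7a5* (3708 bases) was at 110.7 to 185.5 CPM, against 118.9 to 221.9 CPM in the other 17. *Slc1a4* (3926 bases) was at 48.4 to 63.6 against 38.5 to 60.3 CPM, and *Slc1a5* (4173 bases) at 222 to 340 against 177 to 313 CPM. *Slc7a6* (4570 bases) was at 21.5 to 28.6 against 15.6 to 25.7 CPM. The part of the length trend in the results was not tested beyond leaving the 4 mice out and removing the trend.

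In control mice the log2 fold change, ZT12 against ZT0, of *Slc38a1* was -0.23 (SE 0.11, adjusted p 0.280 by edgeR) with all mice and -0.001 without those 4, and that of *Slc7a1* was -0.19 (SE 0.14, adjusted p 0.485 by edgeR) and 0.04. *Slc3a2* went from 0.08 to -0.17 in the same comparison. Between genotypes at ZT12, *Slc38a1* differed by 0.25 (SE 0.12, adjusted p 0.562 by edgeR) with all mice and by 0.02 without the 4. The differences of *Slc1a5* between genotypes were -0.39 at ZT0 and -0.35 at ZT12 without them. Its average over both times was then -0.37 (adjusted p 0.0619 by edgeR) and the average time difference of *Slc7a5* was 0.42 (adjusted p 0.0667 by edgeR), both no longer called.

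**Figure D3:**
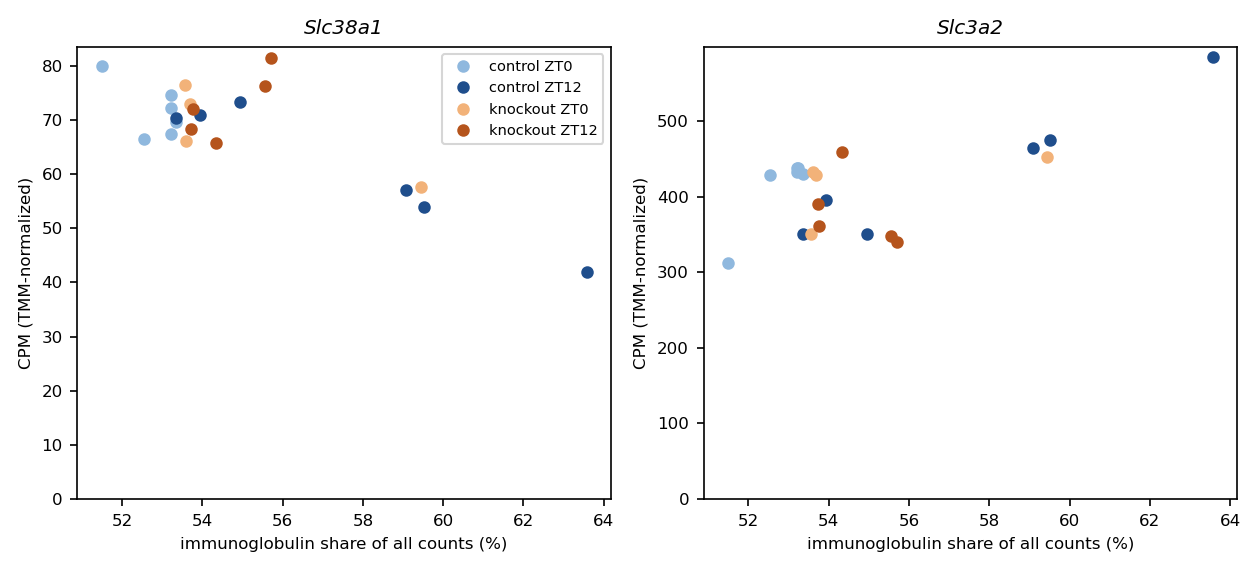
TMM-normalized CPM of *Slc38a1* (left) and *Slc3a2* (right) against the immunoglobulin share of all counts in percent, with 1 point per mouse and 1 colour per group. The 4 mice with a share of 59.1% or more have the 4 lowest values of *Slc38a1* (41.9 to 57.7 CPM) and *Slc3a2* values of 452 to 584 CPM.

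In the 5 planned comparisons, none of the 9 transporters was called at an adjusted p under 0.05 by edgeR. In control mice, ZT12 against ZT0, 0 of 9 were called against 1.73% of all genes, and 3 (*Slc7a5*, *Slc1a5*, *Slc7a6*) had an unadjusted p under 0.05 against 18.1% of all genes. In knockout mice 0 were called, as for all genes (0%), and 1 (*Slc7a5*) had an unadjusted p under 0.05 against 8.01%. In the interaction 0 were called (0% of all genes) and 0 had an unadjusted p under 0.05, against 10.8%.

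Between genotypes at ZT0, 0 of 9 were called by edgeR against 0.00987% of all genes, and 2 (*Slc1a5*, *Slc7a6*) had an unadjusted p under 0.05 against 4.90%. At ZT12, 0 were called against 0.0148%, and 2 (*Slc1a5*, *Slc38a1*) had an unadjusted p under 0.05 against 8.83%. DESeq2 called 0 of 9 in each of these comparisons other than ZT12 between genotypes, where it called 1, *Slc1a5*. Of all 20256 genes it called 8 there. Over time in control mice DESeq2 gave *Slc7a11* no adjusted p, so that gene could not be called. The median log2 fold change of the 9 was 0.19 in control mice and 0.11 in knockout mice for ZT12 against ZT0, -0.07 and 0.002 for knockout against control at ZT0 and ZT12, and -0.06 in the interaction, with a median over all genes between -0.01 and 0.01 in each.

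**Figure D4:**
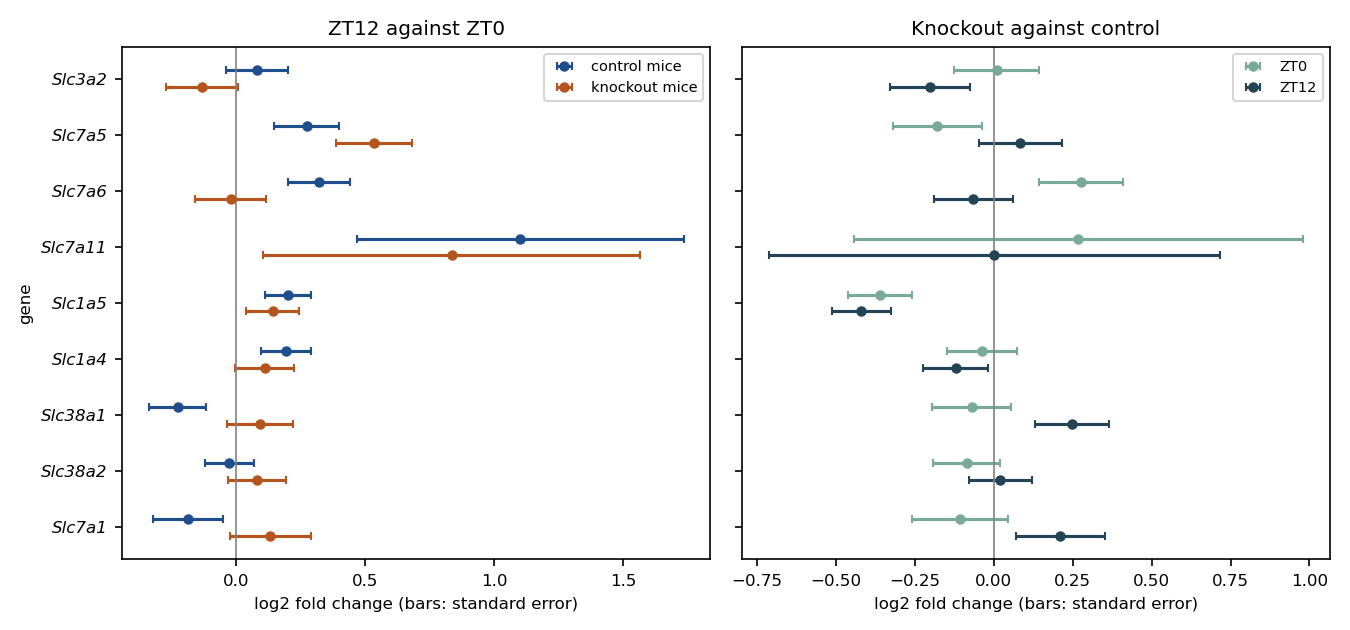
Log2 fold change with its standard error (derived from edgeR's F statistic) for each transporter, ZT12 against ZT0 in control and knockout mice (left) and knockout against control at ZT0 and ZT12 (right). *Slc1a5* lies at -0.36 and -0.42 on the right and *Slc7a5* at 0.27 and 0.54 on the left; *Slc7a11* has the widest errors (0.63 to 0.73 on the left).

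Of 25 other plasma membrane amino acid transporters, 18 passed the filter, and 1 was called in control mice, *Slc7a7*, the y+LAT1 light chain, which was higher at ZT12 (log2 fold change 0.60, SE 0.15, adjusted p 0.0382 by edgeR). The 18 had a median of 0.86 in control mice, against 0.006 for all genes. Of the 18, 11 had a positive and 7 a negative fold change, from -3.01 (SE 1.31) for *Slc38a3* to 3.40 (SE 1.49) for *Slc38a5*, a glutamine carrier. Positive too were *Slc6a19* (3.32, SE 1.38) and *Slc6a20a* (1.37, SE 0.59), carriers of neutral amino acids and of proline in absorptive epithelium. So were *Slc7a9* (2.65, SE 1.57) and *Slc3a1* (1.40, SE 0.67), the pair that takes up cystine there, and *Slc1a1* (1.99, SE 0.74). Neither *Slc38a3* nor any of these positive genes was called by edgeR. All 18 genes together summed to only 80.5 to 88.6 CPM in control ZT0 mice and 64.2 to 137 CPM in control ZT12 mice. Levels of the single genes are not given here, and the wide SE leave the size of their fold changes open. Epithelial markers had a median of 2.45 in the same comparison over the 15 tested, of which 13 were positive and 0 called, and sums from 52.4 to 336 CPM at ZT0 and from 75.8 to 958 CPM at ZT12. With the mean epithelial marker level in the fit the median of the 18 was 0.02 in control mice, and that of all genes -0.02. Over time in knockout mice the 15 epithelial markers tested had a median of 2.74, with 15 positive and 0 called. The median of the 18 transporters was 0.20 there. The part of epithelial RNA in these medians was not tested beyond the fit with the markers. In control mice DESeq2 called 2 of the 18, *Slc7a7* and *Slc1a1*, a glutamate carrier, against 1052 of all 20256 genes. It gave no adjusted p for 8 of the 18, which could therefore not be called. In knockout mice *Slc7a7* was at -0.003 (SE 0.17), and the interaction of -0.60 (SE 0.22) had an edgeR adjusted p of 0.442.

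Of 15 lysosomal and mitochondrial transporters, 14 passed the filter and 1 was called in control mice, *Slc38a9*, the lysosomal arginine sensor upstream of mTORC1 (log2 fold change 0.40, SE 0.097, adjusted p 0.0403 by edgeR). The median of the 14 was -0.12. DESeq2 called 2 of the 14, *Slc38a9* and *Slc25a12*, a mitochondrial carrier of aspartate and glutamate, against 1052 of all 20256 genes. It gave no adjusted p for 1 of the 14.

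Of 21 genes of the amino acid starvation response, 1 was called in control mice, *Shmt2*, an enzyme of mitochondrial serine use (log2 fold change 0.44, SE 0.12, adjusted p 0.0469 by edgeR), and 18 of 21 (85.7%) had a positive fold change, with a median of 0.31, where 50.6% of all genes were positive. In knockout mice over time 15 of 21 were positive with a median of 0.14, where 10262 of all 20256 genes were positive. Scaled by library size only, 12 of 21 were positive in control mice with a median of 0.07, against 32.3% and a median of -0.20 for all genes. *Atf4* itself was at 0.33 (SE 0.13, adjusted p 0.190 by edgeR). DESeq2 called 3 of the 21, *Shmt2*, *Ddit3* and *Eif2ak4*, against 1052 of all 20256 genes. It gave no adjusted p for 1 of the 21. *Eif2ak4*, which encodes the sensor kinase GCN2, was lower (edgeR log2 fold change -0.44, adjusted p 0.0607). Of 17 genes for the use of glutamine, cystine and branched-chain amino acids, edgeR called 0 and DESeq2 called 2, *Got1* and *Gpx4*. DESeq2 gave 1 of the 17 no adjusted p. An unadjusted p under 0.05 by edgeR was found for 7 of the 17, against 18.1% of all genes. In the other lists it was found for 7 of 18 plasma membrane transporters, 5 of 14 lysosomal and mitochondrial transporters and 9 of 21 starvation response genes. The smallest edgeR p in this list were those of *Gpx4* (0.50, SE 0.16, adjusted p 0.107) and *Got1* (0.21, SE 0.077, adjusted p 0.166).

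In the other 4 planned comparisons neither edgeR nor DESeq2 called a gene of these lists. DESeq2 gave no adjusted p there for up to 5 of the 18 plasma membrane transporters, and for up to 1 gene of each other list. Genes at an unadjusted p under 0.05 by edgeR were counted, with the share of all genes in brackets. The order is 18 plasma membrane transporters, 14 lysosomal and mitochondrial transporters, 21 starvation response genes and 17 genes of amino acid use. Over time in knockout mice the counts were 2, 2, 1 and 4 (8.01%), and in the interaction 2, 2, 3 and 3 (10.8%). Between genotypes they were 2, 1, 0 and 0 at ZT0 (4.90%) and 0, 1, 3 and 2 at ZT12 (8.83%). The genes with the smallest p were as follows, as log2 fold changes by edgeR. Over time in knockout mice they were *Slc6a19* (4.59) and *Slc43a2* (0.29), *Slc15a3* (-0.34) and *Slc15a4* (-0.32), *Cth* (1.06) and *Mthfd2* (0.26), and *Got1* (0.21) and *Glud1* (0.26), all with adjusted p between 0.613 and 0.615. In the interaction they were *Slc7a7* (-0.60) and *Slc43a2* (0.45), *Slc25a12* (0.36) and *Slc38a9* (-0.35), *Eif2ak4* (0.55) and *Atf4* (-0.45), and *Gpx4* (-0.74) and *Bckdhb* (-0.75), with adjusted p from 0.442 to 0.455.

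Between genotypes at ZT0 the smallest p belonged to *Slc7a7* (0.42) and *Slc43a2* (-0.33), *Slc38a9* (0.31) and *Slc38a7* (-0.28), *Eif2ak4* (-0.23) and *Cth* (-0.72), and *Gpx4* (0.30) and *Gss* (-0.35), all with an edgeR adjusted p of 0.926. At ZT12 they were *Slc1a2* (-2.07) and *Slc6a6* (0.29), *Slc25a12* (0.23) and *Slc36a4* (0.29), *Atf4* (-0.36) and *Eif2ak4* (0.32), and *Gclm* (-0.52) and *Gpx4* (-0.44), with edgeR adjusted p from 0.562 to 0.666. None of these passed the threshold. In the time average over both genotypes, a contrast added after the data had been seen, DESeq2 called *Shmt2*, *Mthfd2* and *Got1*, higher at ZT12. It also called *Slc15a3*, lower at ZT12, against 664 of all 20256 genes. The calls of *Slc7a7*, *Slc38a9* and *Shmt2* in control mice were themselves lost without the 4 mice of high immunoglobulin share, with log2 fold changes of 0.36, 0.23 and 0.30 and edgeR adjusted p of 0.478, 0.497 and 0.401, and held in 12, 13 and 6 of the 21 fits that left out 1 library. With the mean epithelial marker level in the fit their adjusted p by edgeR were 0.131, 0.109 and 0.0558.

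**Figure D5:**
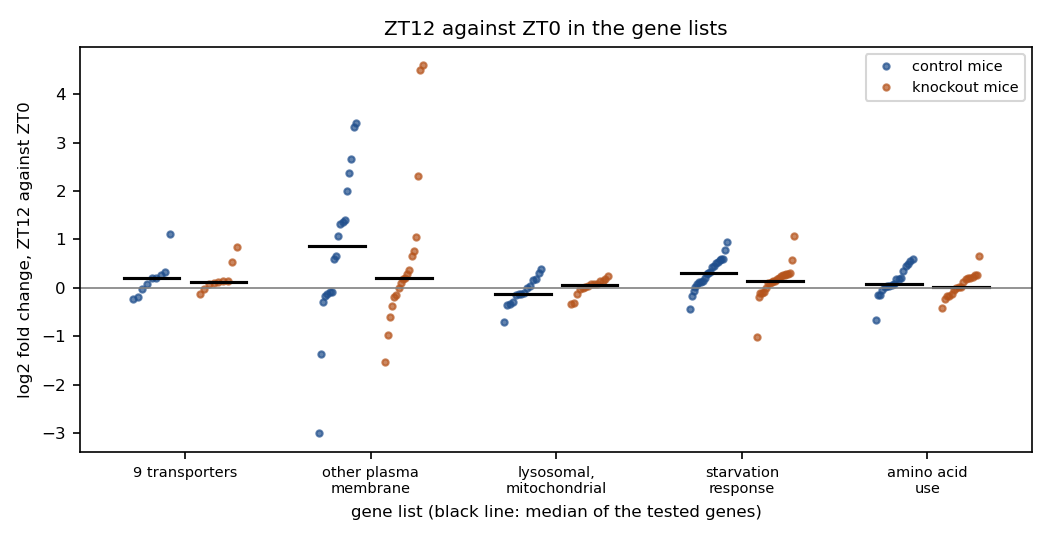
Log2 fold change, ZT12 against ZT0, of each tested gene of 5 lists in control and knockout mice, with 1 point per gene and a black line at the median of the list. The medians of the 9 transporters are 0.19 in control and 0.11 in knockout mice. Those of the 18 other plasma membrane transporters are 0.86 and 0.20, and 0.02 in control mice with the mean epithelial marker level in the fit. These 18 genes together sum to at most 137 CPM in a mouse. The medians of the 21 starvation response genes are 0.31 in control and 0.14 in knockout mice.

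To ask whether the light chains followed their heavy chain from mouse to mouse, log2 CPM was correlated over the 21 libraries, with permutation p-values adjusted over the 3 pairs. For *Slc3a2* with *Slc7a5*, Pearson's r was -0.14 (permutation p 0.540, adjusted 0.540) and Spearman's rho -0.27 (permutation p 0.241, adjusted 0.361). For *Slc7a6*, r was -0.16 (permutation p 0.498, adjusted 0.540) and rho -0.11 (permutation p 0.631, adjusted 0.631). For *Slc7a11*, r was -0.40 (permutation p 0.0766, adjusted 0.230) and rho -0.44 (permutation p 0.0475, adjusted 0.143). No pair passed after adjustment. Without control ZT0 replicate 6 and control ZT12 replicate 2, the mice farthest from the median of *Slc3a2*, r was -0.46, -0.15 and -0.63 in the same order. As deviations from the group means, r was -0.10, -0.23 and -0.43.

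The genes whose levels over the 21 libraries were most like those of *Slc7a5* were *Hid1* (Pearson's r 0.87), *Pdia4* (0.87), a disulfide isomerase of the endoplasmic reticulum, and *Aldh18a1* (0.86), an enzyme of proline synthesis that is also in the starvation response list, out of 8176 genes compared. Those most like *Slc3a2* were *Marc2* (0.87), *Arf1* (0.87) and *Cib2* (0.86). These are descriptions over libraries that differ in immunoglobulin share and length trend.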

How the data were processed

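The data are RNA levels of purified IgA+ PCs from 21 mice. What the authors deposited is a table of raw counts for each gene, whole numbers without normalization, from poly-A RNA libraries (NEB Next Ultra) sequenced as read pairs. The submitters' processing notes name DESeq and DESeq2. The aligner, the counter, the strand setting and the genome build are not given in the sources used here. Coordinates were taken as GRCm38, since 52019 of 53620 genes matched by ID to GENCODE M21 have the same position, those of all 9 transporters included. Genes that overlap *Slc7a5* or *Slc7a11* had 0 counts. The labels do not say how mice were grouped for processing, so p-values measure only the spread between these samples.

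Genes with a total under 10 counts were removed, TMM factors computed and edgeR 4.0.16 in R 4.3.3 fitted by robust quasi-likelihood to the 4 group means over all 21 libraries, with Benjamini-Hochberg adjustment over all 20256 genes and a threshold of 0.05. The SE of an edgeR fold change was derived as its absolute log2 value divided by the square root of the F statistic. CPM per kb divides by the deposited gene length. Correlations used log2 CPM (prior count 2) and 100000 permutations, two-sided. The transporters and gene lists were chosen with earlier results of these data known. All 9 transporters are named in every comparison. From each further list every gene called in the 5 planned comparisons is named, or the 2 with the smallest p where none was. In the time average only the DESeq2 calls of these lists are given. Named too are the 3 genes most like *Slc7a5* and *Slc3a2* with a mean of at least 5 CPM. Some genes were named outside this rule, after their values were seen. They are *Atf4*, the 6 genes of the last section whose genotypes do not overlap, and plasma membrane transporters not called in control mice. These transporters are *Slc38a3*, *Slc38a5*, *Slc6a19*, *Slc6a20a*, *Slc7a9* and *Slc3a1*.

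Alternatives were DESeq2 1.42.0, its size factors in edgeR, library size only, immunoglobulin genes removed, no filter, filterByExpr, a threshold of 0.01, only the groups compared, the replicate number as a block, the immunoglobulin share, *Xist* level or epithelial marker level as a covariate, removal of a length trend (lowess, span 0.5), and each library left out. Leaving out the 4 libraries with the highest immunoglobulin share, a term for the run of columns in the count table and both averaged contrasts were added after the data had been seen. Limits for a count of 0 cover counting error only. No column of comparisons by the authors was used.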

Additional observations from a re-analysis of the deposited data

Results flagged for a closer look

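Of 36 sets of values checked (9 transporters in 4 groups), 1 held a mouse apart from the rest of its group by Dixon's criterion, which chance meets in about 1 in 20 sets. It was *Slc3a2* in control ZT0 replicate 6, at 311.6 CPM, where the other 5 control ZT0 mice lay between 428.1 and 438.4 CPM. The same mouse had the lowest immunoglobulin share of the 21 (51.5%). Leaving out this mouse did not give a call for *Slc3a2* in any comparison.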

How the results depend on the processing

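Counting error is small for the transporters other than *Slc7a11*, whose 0 to 16 counts allow no firm direction.

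Of 1681 fold changes under an alternative, 85 changed direction and none of those passed the test. In the list below, control time and knockout time are ZT12 against ZT0, and ZT0 and ZT12 are knockout against control. With the immunoglobulin share in the fit, control time was -0.208 for *Slc3a2*, 0.047 for *Slc38a1*, 0.161 for *Slc38a2* and 0.092 for *Slc7a1*, the interaction 0.105 for *Slc3a2*, 0.037 for *Slc1a5*, 0.034 for *Slc1a4* and -0.097 for *Slc38a2*, ZT0 -0.118 for *Slc3a2*, 0.071 for *Slc38a1*, 0.009 for *Slc38a2* and 0.018 for *Slc7a1*, and ZT12 -0.088 for *Slc38a2* and -0.407 for *Slc7a11*. Without the 4 libraries of high immunoglobulin share, control time was -0.173 for *Slc3a2*, 0.105 for *Slc38a2* and 0.038 for *Slc7a1*, knockout time 0.062 for *Slc7a6*, the interaction 0.079 for *Slc3a2*, 0.041 for *Slc1a5*, 0.017 for *Slc1a4*, -0.075 for *Slc38a2* and -0.036 for *Slc7a1*, ZT0 -0.028 for *Slc3a2*, 0.008 for *Slc38a1* and 0.023 for *Slc7a1*, and ZT12 0.052 for *Slc3a2*, -0.110 for *Slc38a2*, -0.013 for *Slc7a1*, -0.466 for *Slc7a11* and -0.015 for *Slc7a5*. With library size only, which moved the median of all genes to -0.199 in control time, 0.191 in the interaction and 0.118 at ZT12, control time was -0.156 for *Slc3a2*, -0.022 for *Slc1a5* and -0.025 for *Slc1a4*, the interaction 0.003 for *Slc3a2*, 0.140 for *Slc1a5* and 0.113 for *Slc1a4*, ZT0 -0.044 for *Slc3a2*, and ZT12 0.018 for *Slc1a4* and 0.066 for *Slc7a6*. With the length trend removed, *Slc38a2* was 0.096 in control time, -0.069 in the interaction and -0.091 at ZT12, *Slc38a1* -0.006 in knockout time and 0.028 at ZT0, and *Slc7a11* -0.146 at ZT12. With *Xist* in the fit *Slc3a2* was -0.002 at ZT0 and *Slc7a11* -0.058 at ZT12. *Slc7a11* at ZT12, 0.002 in the fit reported, was also -0.022 by DESeq2, -0.014 with its size factors, -0.004 with epithelial markers, -0.013 with filterByExpr, -0.002 without a filter and -0.003 with only the groups compared. The cause of these shifts was not tested.

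With 1 library left out, ranges that crossed 0 were -0.020 to 0.139 for *Slc3a2* and -0.078 to 0.051 for *Slc38a2* in control time, -0.115 to 0.066 for *Slc7a6* in knockout time, -0.652 to 1.068 for *Slc7a11* in the interaction, -0.053 to 0.092 for *Slc3a2*, -0.084 to 0.058 for *Slc1a4*, -0.120 to 0.003 for *Slc38a1*, -0.257 to 0.019 for *Slc7a1* and -1.070 to 0.653 for *Slc7a11* at ZT0, and -0.061 to 0.067 for *Slc38a2* and -0.206 to 0.196 for *Slc7a11* at ZT12.

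The number of transporters called was 0 in the 5 planned comparisons under every alternative except DESeq2 at ZT12 (1). In the genotype average it was 1, and 0 with library size only, without a filter, with the replicate block, without the 4 libraries and at the threshold of 0.01. In the time average it was 1, and 0 with library size only, with the replicate block, without the 4 libraries and at 0.01. With 1 library left out both ran from 0 to 1. Over all genes, control time gave 350 calls, 54.9% of them higher at ZT12, and 446 (10.8% higher) with library size only, 1052 (59.0%) by DESeq2, 183 (46.4%) with the replicate block, 136 (70.6%) with epithelial markers, 38 (42.1%) with only the groups compared, 14 (35.7%) at 0.01, 12 (66.7%) without the 4 libraries and 0 with the immunoglobulin share in the fit. The adjusted p of *Slc1a5* in the genotype average was 0.249 with library size only and 0.0554 without a filter, and ran from 8.543e-07 (DESeq2) to 0.249. That of *Slc7a5* in the time average was 0.187 with library size only, and ran from 0.002382 (DESeq2) to 0.187.

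The labels do not say what a replicate number marks. Of 28 same-numbered pairs, 13 had correlated deviations (r over 0.1), and 7 of 21 libraries correlated best with their own number, while the 6 pairs of replicates 1 had r from 0.213 to 0.473. No share for differently numbered pairs is given here, so these counts have no reference to be read against. Columns of the count table follow each other in 3 runs, each with 7 libraries from all 4 groups, and *Xist* was above 100 CPM in 7 libraries of the first run, 1 of the second and 2 of the third. Replicates 1 of all 4 groups lie in the first run, where *Xist* ran from 329 to 479 CPM. Replicate number, run and *Xist* level therefore coincide for them. With the run as a term, an alternative added after the data had been seen, both averages held (*Slc1a5* -0.41, adjusted p 0.00551, and *Slc7a5* 0.43, adjusted p 0.0256, by edgeR), control time had 545 calls over all genes (55.2% higher), and *Slc7a11* at ZT12 was -0.090. With the replicate block the genotype average of *Slc1a5* was -0.37 (adjusted p 0.181 by edgeR), the time average of *Slc7a5* 0.41 (adjusted p 0.0701 by edgeR) and *Slc3a2* at ZT0 -0.054, and the planned comparisons had 0 calls as before.

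Correlations with *Slc3a2* passed an unadjusted permutation p of 0.05 for *Slc7a5* without the 2 farthest libraries (r -0.458) and for *Slc7a6* with library size only (-0.542). For *Slc7a11* they passed with library size only (-0.458) and without the 2 farthest libraries (-0.625). With 1 library left out, r for *Slc7a11* ran from -0.580 to -0.347 over 21 fits. Of these, 2 passed, those without control ZT12 replicate 2 (-0.580) or knockout ZT12 replicate 2 (-0.465).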

Other observations

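Only 6 of the 20256 genes tested had all knockout mice on the same side of all control mice at both times, and *Slc1a5* was among them. These were *Cry1* and *Cry2*, which encode clock repressors and were higher in knockout mice, and *Nr1d2*, which encodes the clock repressor REV-ERB beta, *Zmynd8*, *Slc1a5* and *Cd79a*, which were lower. Averaged over both times, the log2 fold changes were 0.57 for *Cry1*, 0.49 for *Cry2*, -2.39 for *Nr1d2*, -0.14 for *Zmynd8*, -0.39 for *Slc1a5* and -1.19 for *Cd79a*, and all but *Zmynd8* were called by edgeR. *Slc1a5* lies on chromosome 7, 8.10 Mb from *Cd79a* (GRCm38 chromosome 7, 24897381 to 24902197), the locus that carries the Cre insertion. *Arntl* is on chromosome 7 too, but its floxed alleles were carried by control and knockout mice alike. The part of linked sequence in the *Slc1a5* difference was not tested.

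*Slc3a2* and *Slc38a1* varied in opposite directions over the 21 libraries (Pearson's r -0.84, permutation p 1e-05, the smallest that the permutations can give, and Spearman's rho -0.82, permutation p 3e-05), the strongest relation among 36 pairs of transporters, with adjusted p of 0.00036 and 0.00108 over them. Without the 2 mice farthest from the median of *Slc3a2* r was -0.74, within groups it was -0.88, and with the length trend removed it was -0.74. By Pearson's r, the only other pair with an adjusted p under 0.05 was *Slc38a2* with *Slc7a1* (r 0.62, permutation p 0.00157, adjusted 0.0283, rho 0.60, permutation p 0.00475, adjusted 0.0855). For that pair r was 0.37 without the 2 mice farthest from the median of *Slc38a2* and 0.23 with the length trend removed. Both pairs were singled out after their values were seen.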
